A study of Mus musculus with 10 samples.

Results

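Neutrophil and granulocyte precursor genes were followed in the livers of old mice with and without hepatocyte Arg2. The 10 genes were taken by symbol from a table of 55487 genes. They comprise 4 genes of mature neutrophils (S100a8, S100a9, Ly6g and Retnlg) and 6 granule genes of precursors (Elane, Mpo, Ngp, Camp, Ltf and Mmp8). The control group, Flox, was Arg2 fl/fl mice, which carry floxed alleles and keep the gene. The other group, LKO, was their littermates in which Arg2 was deleted in hepatocytes. All mice were of strain C57B/6J (as the labels spell it), aged 22 months and co-housed on a normal chow diet. The groups had 5 libraries each, made by oligo-dT from RNA of whole liver tissue. The promoter of the Cre is not given in the sources used here. A deletion in hepatocytes is meant to leave Arg2 in the other cells of the liver, neutrophils included, which was not checked here.

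Neutrophils fill their granules in the order in which they mature in bone marrow. Promyelocytes make the azurophil granule proteins, among them the protease elastase (Elane) and myeloperoxidase (Mpo). Myelocytes and metamyelocytes then make the specific granule proteins, such as lactoferrin (Ltf) and cathelicidin (Camp), and shut these transcripts down as they leave for the blood. Circulating neutrophils keep abundant S100a8 and S100a9 transcripts, which encode calprotectin. Granule and calprotectin transcripts are set side by side here as a description, and their balance was not tested as a measure of maturity. In a bulk sample, fewer cells of a type and less RNA per cell cannot be told apart.

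Libraries held 43331354 to 54951415 counts, and the 10 genes together took 7.28e-05% to 0.0023% of a library. Levels are given as CPM, counts scaled to a common library size. A gene at 0 could hold up to 3 counts, which by library is 0.0546 to 0.0692 CPM. Of the genes with 1 to 10 counts, 68.35% to 73.4% had an even count in each library. Whether both mates of a read pair were counted is not given, and intervals on counts, which cover counting error only, would be wider for pairs. Arg2 had 9 counts in all Flox and 10 in all LKO libraries, too few to check the deletion. The hepatocyte markers Alb, Apoa1, Ttr and Serpina1a together stood at 49960 to 117400 CPM in Flox and 122400 to 150200 CPM in LKO, the highest sums of the marker sets examined. No label states that each library came from a separate mouse, so p-values measure only the spread between these libraries.

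Promoter sequences were searched for all 10 genes, and stretches are shown for Elane, Mpo, Ngp and Ltf, which each held a match. C/EBP factors and PU.1 are textbook regulators of granulocyte genes, and the letters TTGCNNAA (C/EBP) and GAGGAAG (PU.1 and other ETS factors) were searched on both strands. The window ran from 250 bases before to 50 after the RefSeq start (GRCm38.p6). Promoters were found for all 10 genes, 11 in number since Ly6g has an alternative start. TTGCNNAA stood in the promoters of 6 of the 10 genes (Ltf, Ly6g, Mmp8, Ngp, Retnlg and S100a9), and in 10.8% of all 32851 promoters of the same length. GAGGAAG stood in those of 5 (Elane, Ly6g, Mmp8, Mpo and S100a8), and in 13.6% of all promoters. Camp held neither. A match is only a description of these letters. The stretches below lie before the annotated starts, read 5′ to 3′ on the gene's strand, with the matched letters (on either strand) in capitals. They are chr10:79886187-79886246 (Elane, + strand), chr11:87793534-87793580 (Mpo, + strand), chr9:110419650-110419709 (Ngp, + strand) and chr9:111019197-111019256 (Ltf, + strand).
Elane: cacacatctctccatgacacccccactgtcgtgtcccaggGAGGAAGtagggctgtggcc
Mpo: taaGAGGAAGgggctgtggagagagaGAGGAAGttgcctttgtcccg
Ngp: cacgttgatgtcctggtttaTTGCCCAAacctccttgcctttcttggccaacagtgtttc
Ltf: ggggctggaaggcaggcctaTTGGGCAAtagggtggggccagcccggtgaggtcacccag
Mpo carries GAGGAAG at 2 places, and the azurophil pair Elane and Mpo shows no TTGCNNAA. Ngp carries TTGCNNAA at 2 places, of which 1 is shown, and Ltf at 1, and neither has a GAGGAAG in the window.

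S100a8 and S100a9, which form calprotectin, the zinc- and manganese-binding protein that fills the neutrophil cytosol, were the most abundant of the 10 genes. S100a8 (ENSMUSG00000056054, chromosome 3, 90668978 to 90670035, 3 exons) was at 1.36, 0.728, 3.86, 4.098 and 0.292 CPM in Flox 1 to 5. In LKO 1 to 5 it was at 0.377, 5.83, 1.01, 1.08 and 1.05 CPM. LKO 2 was the highest library and Flox 4 and Flox 3 came next, while Flox 5 was the lowest, and the other libraries of the groups overlapped. S100a9 (ENSMUSG00000056071, chromosome 3, 90692632 to 90695721, 3 exons) was at 2.18, 3.09, 10.02, 7.27 and 0.310 CPM in Flox 1 to 5. It was at 0.997, 9.44, 3.13, 1.22 and 2.60 CPM in LKO 1 to 5. Flox 3, LKO 2 and Flox 4 were again the highest libraries and Flox 5 the lowest, and the groups overlapped over most of their range. The means were 2.07 ± 1.79 against 1.87 ± 2.23 CPM for S100a8 and 4.57 ± 3.97 against 3.48 ± 3.45 CPM for S100a9 (Flox against LKO, SD, n = 5 each).

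Neither calprotectin gene differed between the groups beyond the spread of the libraries. S100a8 had a log2 fold change of -0.14 ± 0.84 (SE, 95% interval -2.03 to 1.74, adjusted p = 0.964 by edgeR's quasi-likelihood test). S100a9 had one of -0.39 ± 0.85 (95% interval -2.29 to 1.502, adjusted p = 0.905). Both intervals reach past 1 on the log2 scale in either direction, so the test does not show that the levels were alike. Without LKO 2 the log2 fold changes were -1.23 and -1.2025. The sign turned for S100a8 without any 1 of Flox 3, Flox 4, LKO 1, LKO 3 or LKO 5 (0.0048 to 0.27), and for S100a9 without Flox 3 (0.11).

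The other mature genes were near the limit of detection. Retnlg (ENSMUSG00000022651, chromosome 16, 48872621 to 48874496, 4 exons), a resistin-like secreted protein of mouse neutrophils, had 6, 22, 26, 26 and 0 counts in Flox 1 to 5. It had 0, 30, 6, 4 and 10 counts in LKO 1 to 5. Flox 2, 3 and 4 and LKO 2 stood above the other 6 libraries. Retnlg did not pass the filter on low counts, and its mean CPM (0.316 ± 0.244 in Flox, 0.208 ± 0.247 in LKO) gave an exact permutation p of 0.516. Ly6g (ENSMUSG00000022582, chromosome 15, 75155240 to 75159126, 4 exons), the surface protein by which mouse neutrophils are sorted, had 10 counts in all 10 libraries. LKO 2 held 4 of them, Flox 3 and Flox 5 held 2 each, Flox 2 and LKO 3 held 1 each, and the other 5 libraries were at 0. Only the 4 counts of LKO 2 exceeded the 3 counts that a 0 allows, and reads of Ly6g may be lost to or gained from its close Ly6 relatives. No direction between the groups can be read from 5 counts in each.

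**Figure D1:**
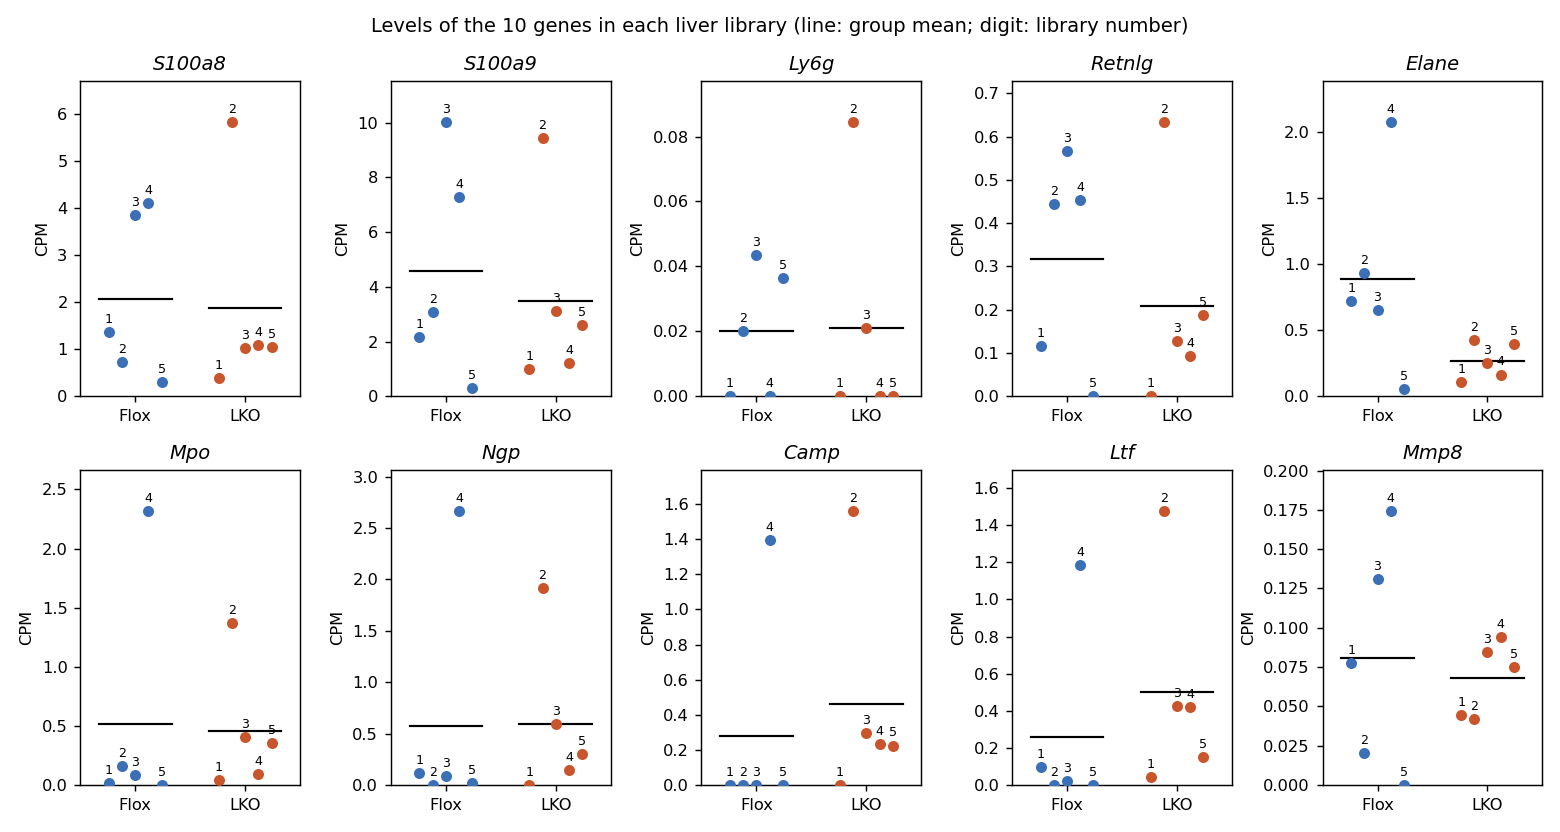
CPM of each of the 10 genes (vertical axes, each with its own scale) in 5 Flox and 5 LKO libraries, with 1 point per library, its number above it and a line at the group mean. Flox 4 and LKO 2 stand above the other libraries for Mpo, Ngp, Camp and Ltf, whereas Flox 3 also stands high for S100a8, S100a9 and Retnlg.

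The azurophil granule genes Elane and Mpo were both highest in Flox 4 and ranked the other libraries differently. Elane (ENSMUSG00000020125, chromosome 10, 79886247 to 79888215, 5 exons) was at 0.720, 0.930, 0.655, 2.075 and 0.0548 CPM in Flox 1 to 5, and at 0.111, 0.422, 0.254, 0.164 and 0.393 CPM in LKO 1 to 5. Of the Flox libraries, 4 lay above all LKO libraries, and Flox 5 lay below them all, with only 3 counts. The means were 0.887 ± 0.740 and 0.269 ± 0.137 CPM (SD, n = 5 each). Elane had a log2 fold change of -1.71 ± 0.68 (SE, 95% interval -3.19 to -0.22), which was not called after adjustment (unadjusted p = 0.0276, adjusted p = 0.652 by edgeR). It was -1.11 without Flox 4, with an Elane mean of 0.590 CPM in the remaining Flox libraries, and -2.01 without Flox 5. By limma-voom with quality weights Elane had a log2 fold change of -1.13 ± 0.91 (SE, adjusted p = 0.791). Mpo (ENSMUSG00000009350, chromosome 11, 87793581 to 87804413, 15 merged exons) had 1, 8, 4, 133 and 0 counts in Flox 1 to 5, and 2, 65, 19, 4 and 19 in LKO 1 to 5. Flox 4 and LKO 2 held 77.7% of all Mpo counts, against 46.3% of all Elane counts. Mpo did not pass the filter, and its mean CPM (0.518 ± 1.01 in Flox, 0.453 ± 0.537 in LKO) gave an exact permutation p of 0.952. Without Flox 4 the Mpo mean of Flox was 0.0671 CPM, and without LKO 2 that of LKO was 0.224 CPM. The sign of the Mpo difference turned without Flox 4, LKO 1 or LKO 4 (0.386, 0.0382 and 0.0258 CPM, LKO minus Flox).

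The specific granule genes Ngp, Camp and Ltf were concentrated in 1 library of each group. Ngp (ENSMUSG00000032484, chromosome 9, 110419747 to 110423012, 4 exons), a cystatin-like granule protein, had 6, 0, 4, 153 and 1 counts in Flox 1 to 5, and 0, 91, 28, 6 and 16 in LKO 1 to 5. Camp (ENSMUSG00000038357, chromosome 9, 109847379 to 109849617, 4 exons), the precursor of the mouse cathelicidin peptide, had 80 counts in Flox 4 and 0 in each of the other 4 Flox libraries. In LKO 1 to 5 it had 0, 74, 14, 10 and 12 counts. Camp was thus above 3 counts in 1 Flox library and 4 LKO libraries. Ltf (ENSMUSG00000032496, chromosome 9, 111019271 to 111042767, 18 merged exons), the iron-binding lactoferrin, had 5, 0, 1, 68 and 0 counts in Flox 1 to 5, and 2, 70, 20, 18 and 8 in LKO 1 to 5. Flox 4 and LKO 2 held 80.0% of all Ngp counts, 81.1% of Camp and 71.9% of Ltf. Outside these 2 libraries, LKO 3, 4 and 5 stood above Flox 1, 2, 3 and 5 in CPM for all 3 genes, by the smallest margin for Ngp, of which LKO 4 and Flox 1 had 6 counts each.

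No difference between the whole groups was detected for any of the 3 genes, which does not show that their levels were alike. Camp passed the filter, with a log2 fold change of 0.69 ± 1.49 (SE, 95% interval -2.63 to 4.01, adjusted p = 0.905 by edgeR's quasi-likelihood test). It was 2.71 ± 1.83 by limma-voom with quality weights (adjusted p = 0.765). Mean CPM of Ngp was 0.578 ± 1.17 in Flox and 0.591 ± 0.776 in LKO (exact permutation p = 0.952), and that of Ltf 0.261 ± 0.519 and 0.503 ± 0.570 (exact permutation p = 0.460). Flox 4 set the Flox means: without it they were 0.0556 CPM for Ngp, 0.0298 for Ltf and 0.0 for Camp. Without Flox 4 the Ltf difference was 0.474 CPM (exact permutation p = 0.0317, 1 of 10 such omissions for Ltf) and that of Ngp 0.535 CPM (exact permutation p = 0.0952). Without LKO 2 the LKO means were 0.258 CPM for Ngp, 0.189 for Camp and 0.260 for Ltf. The sign then turned for all 3 (Camp log2 fold change -0.60, Ngp -0.320 and Ltf -0.0012 CPM), and that of Ngp also turned without Flox 1, 2, 3 or 5 (-0.132 to -0.103 CPM). Mmp8 (ENSMUSG00000005800, chromosome 9, 7558456 to 7568485, 10 exons), the neutrophil collagenase, had 4, 1, 6, 10 and 0 counts in Flox 1 to 5, and 2, 2, 4, 4 and 4 in LKO 1 to 5. At this depth no difference in Mmp8 was detectable (exact permutation p = 0.730), and it was not raised in LKO 2.

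Of the 10 genes, 4 passed the filter (S100a8, S100a9, Elane and Camp), and 0 of these 4 were called at an adjusted p under 0.05. Over all 15894 genes 0.0% were called. At an unadjusted p under 0.05 there was 1, Elane, with 7.51% of all genes tested under it (1193 genes). The Flox and LKO libraries overlapped for all 10 genes, and for all but 0.906% of the genes tested. DESeq2 called 11 genes over the table, none of them among the 10, all 4 of which it left without an adjusted p. In a fit with no filter on low counts the 10 log2 fold changes ran from -1.70 (Elane) to 0.91 (Ltf), with standard errors of 0.71 to 1.66. The plot of fold changes shows their intervals.

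**Figure D2:**
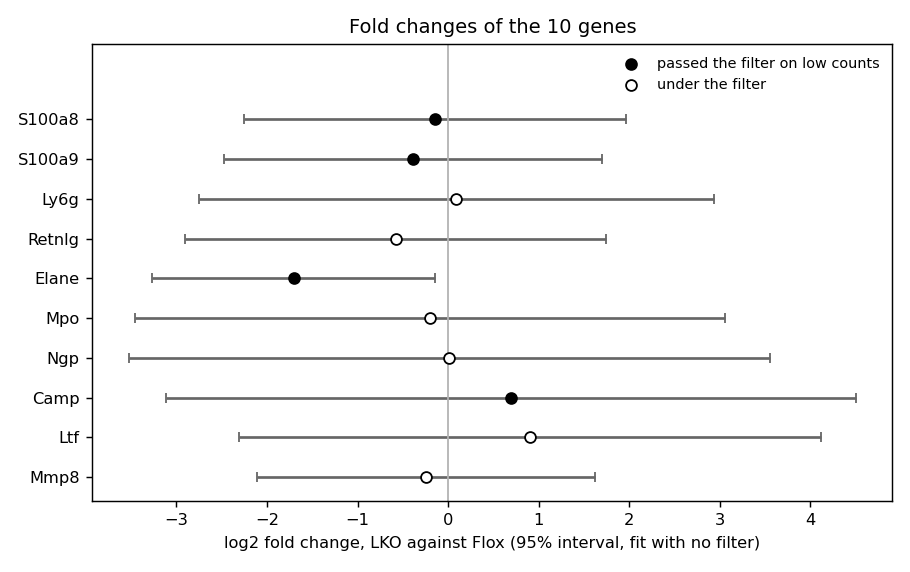
Log2 fold changes of LKO against Flox (horizontal axis) for the 10 genes, with 95% intervals from edgeR's fit with no filter on low counts, filled for the 4 genes that passed the filter in the main fit. All intervals but that of Elane (-3.27 to -0.14) span 0, and Elane had an adjusted p of 0.577 in this fit.

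Specific granule counts put the same 5 libraries on top whether taken alone or set against calprotectin counts. Summed over Ngp, Camp and Ltf they were 301 in Flox 4 and 235, 62, 34 and 36 in LKO 2 to 5, and at most 11 in the other 5 libraries. Counts of Ngp, Camp and Ltf were expressed as a share of these plus S100a8 and S100a9, with exact (Clopper-Pearson) 95% binomial intervals. The share was 31.6% in Flox 4 (301 of 953 counts, 28.6% to 34.6%). It was 5.70% in Flox 1 (2.88% to 9.97%), 0.780% in Flox 3 (5 of 641, 0.254% to 1.81%) and 2.94% in Flox 5 (1 of 34, 0.0744% to 15.3%). In Flox 2 it was 0 of 189 counts, which allows a share of up to 1.59%. In LKO 2, 3, 4 and 5 it was 24.5% (21.8% to 27.4%), 24.03% (18.9% to 29.7%), 25.8% (18.5% to 34.1%) and 15.6% (11.2% to 20.9%). LKO 1 had 2 of 64 counts (3.12%, 0.381% to 10.8%). Flox 3 and LKO 2 thus held similar S100a9 levels (10.02 and 9.44 CPM) with shares of 0.780% and 24.5%. The group means were 8.20% ± 13.3 in Flox and 18.6% ± 9.55 in LKO (SD, n = 5 each), and the groups overlapped through Flox 4 and LKO 1. Without Flox 4 the Flox mean was 2.36%. No test was made of this share, which was defined after the counts were seen. The summed monocyte markers given below were higher in Flox 3 than in LKO 2. Whether cells other than neutrophils held part of the calprotectin counts was not tested, so the share is not a reading of neutrophil maturity alone.

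**Figure D3:**
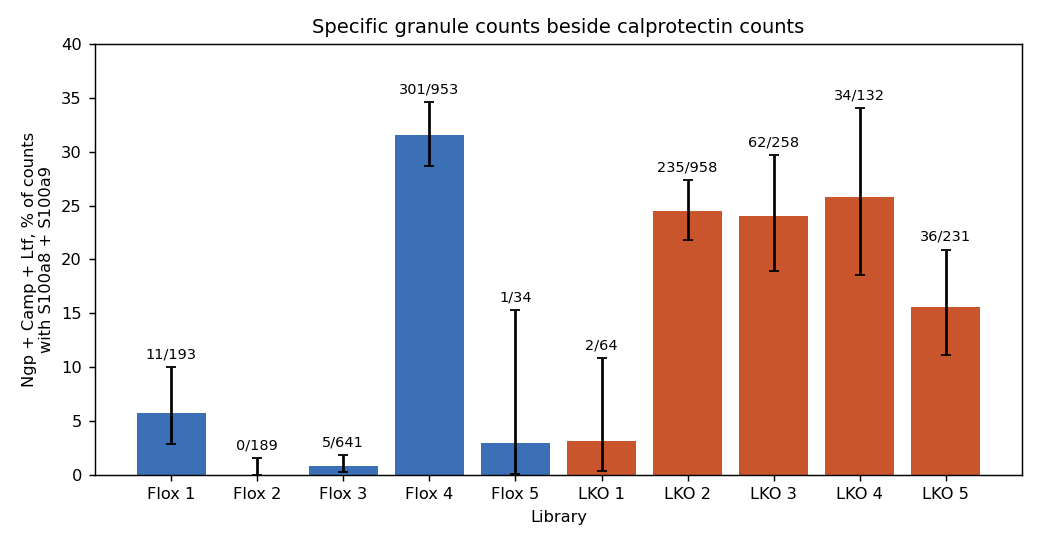
Share (vertical axis, percent) of Ngp, Camp and Ltf counts among the summed counts of these 3 genes and S100a8 and S100a9, in each library (horizontal axis), with exact 95% binomial intervals (for the 0 of Flox 2, the limit of 3 counts) and the counts above the bars. Flox 4 and LKO 2 to 5 lie between 15.6% and 31.6%, and the other 5 libraries at or below 5.70%.

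The same contrast over all 10 genes was taken as the mean log2 CPM of the 6 precursor genes minus that of the 4 mature genes. It was -1.53, -2.42, -3.19, 0.57 and -1.48 in Flox 1 to 5, and -1.16, -0.88, -0.33, -0.50 and -0.61 in LKO 1 to 5. Flox 4 was the only library above 0, and the other 4 Flox libraries lay below all 5 LKO libraries. The means were -1.61 in Flox (-2.16 without Flox 4) and -0.70 in LKO. With Mmp8 counted among the mature genes the LKO mean was -0.050, and LKO 2 (0.60) and LKO 3 (0.31) were above 0 as well. A gene at 0 counts takes a log2 CPM set by the prior count, here 2. With a prior count of 0.5 and the genes as first grouped, Flox 2 was at -3.35 and Flox 5 at -2.33. The means were then -1.99 in Flox and -0.52 in LKO. Flox 4 was still the only library above 0, and the other 4 Flox libraries still lay below all 5 LKO libraries. These are descriptions of scores over the chosen genes and carry no test.

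Elane varied with its chromosomal neighbour Prtn3. Prtn3 (ENSMUSG00000057729), proteinase 3 of azurophil granules, ends 3072 bases before Elane on the same strand of chromosome 10 (79874476 to 79883174). It had 76, 1998, 877, 3246 and 32 counts in Flox 1 to 5, and 20, 231, 221, 55 and 165 in LKO 1 to 5. Prtn3 was thus far above the other azurophil granule genes in Flox 2 and Flox 3, where Mpo had 8 and 4 counts and Ctsg, cathepsin G of the same granules, had 0 in both. Prtn3 averaged 23.6 ± 24.5 CPM in Flox against 2.87 ± 1.98 in LKO (log2 fold change -3.04 ± 1.17 SE, unadjusted p = 0.0278, adjusted p = 0.652 by edgeR's quasi-likelihood test). Over the 10 libraries the log2 CPM of Elane and Prtn3 had a Pearson r of 0.865 (permutation p = 0.00138, adjusted p = 0.0145 over 16 relations) and a Spearman rho of 0.855 (permutation p = 0.00298, adjusted p = 0.0159). The r was 0.765 without Flox 4 and Flox 5, the libraries farthest from the Elane median, and no longer passed after adjustment (adjusted permutation p = 0.143). Retnlg (r = 0.860, rho = 0.879, adjusted permutation p = 0.0145 and 0.0159) and S100a9 (r = 0.769, rho = 0.855, adjusted permutation p = 0.0376 and 0.0159) also passed with Prtn3. Without the 2 libraries farthest from their medians these no longer passed either (r = 0.758 and 0.708, adjusted permutation p = 0.143 each). For Ngp and Prtn3 the r was 0.397 (permutation p = 0.253, adjusted p = 0.368) and the rho 0.467 (permutation p = 0.177, adjusted p = 0.283), and for Ltf and Prtn3 the r was 0.203 (permutation p = 0.564, adjusted p = 0.645) and the rho 0.255 (permutation p = 0.473, adjusted p = 0.523). A difference between these correlations was not tested. Without Flox 4 and LKO 2 the r of Ngp was 0.0606 and that of Ltf -0.209.

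The 3 libraries with the most Prtn3 were also those with the most serum amyloid. Saa2, a serum amyloid that hepatocytes make in the acute phase response, stood at 37.8, 7471, 17170, 1873 and 33.2 CPM in Flox 1 to 5. It was between 12.1 and 247 CPM in LKO, highest in LKO 2. Of the 8 genes among the 10 with at least 1 count in 8 libraries, Retnlg passed the adjusted permutation test with Saa2 by both measures (r = 0.784, adjusted permutation p = 0.0376, rho = 0.782, adjusted permutation p = 0.0339, r = 0.757 and adjusted permutation p = 0.143 without Flox 5 and LKO 1). S100a9 passed by rho (0.806, adjusted permutation p = 0.0286) and not by r (0.684, adjusted permutation p = 0.0900). Elane passed by neither (r = 0.674, adjusted permutation p = 0.0900, rho = 0.685, adjusted permutation p = 0.0793), and Ngp by neither (r = 0.124, adjusted permutation p = 0.779, rho = 0.248, adjusted permutation p = 0.523). Whether the acute phase response, or reads that run on from Prtn3, had a part in the Elane counts was not tested. Cfd (complement factor D), 2637 bases beyond Elane on its other side, had another profile, with 546, 12, 71, 10 and 377 counts in Flox 1 to 5 and 400, 98, 65, 27 and 586 in LKO 1 to 5.

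**Figure D4:**
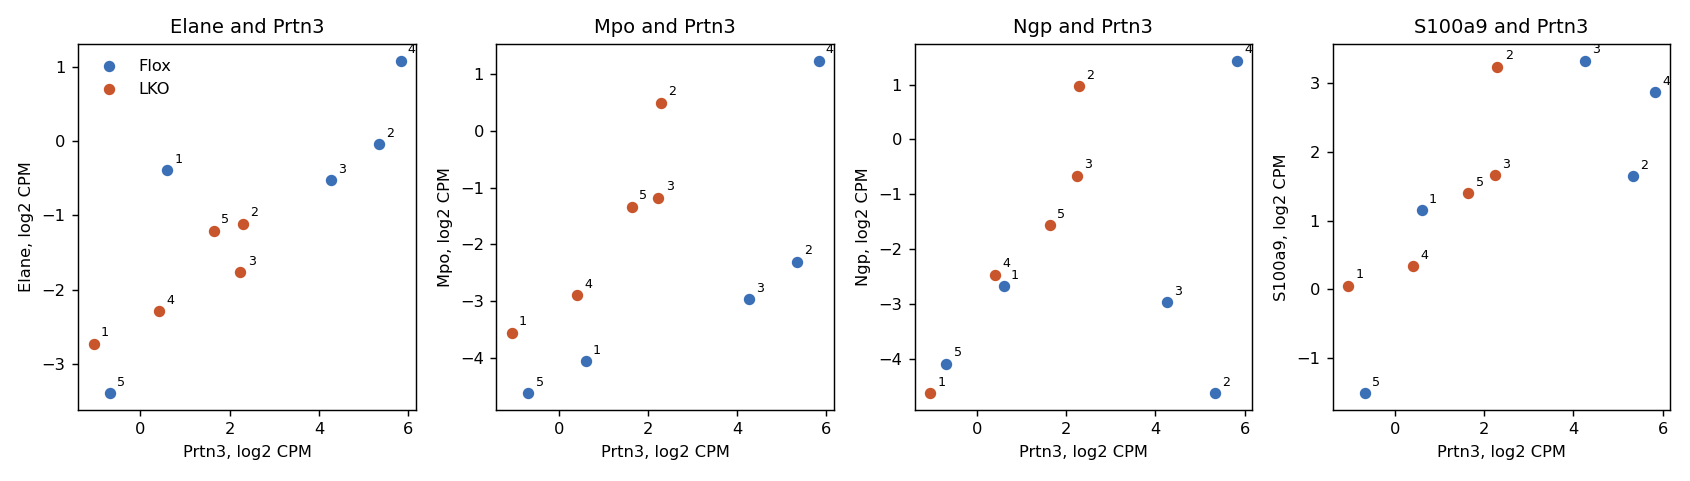
Log2 CPM of Elane, Mpo, Ngp and S100a9 (vertical axes) against that of Prtn3 (horizontal axis) in 10 libraries, coloured by group and numbered. Elane has r = 0.865 with Prtn3, and 0.765 without Flox 4 and Flox 5. In Flox 1, 2 and 3 Elane is at -0.395, -0.043 and -0.525, with Prtn3 at 0.603, 5.34 and 4.26. Ngp is low in Flox 2 and Flox 3 at high Prtn3 (r = 0.397).

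Among themselves the genes varied together to differing degrees. All 28 pairs of the 8 genes had a positive Pearson r, and 9 of the 28 passed the permutation test at an adjusted p under 0.05. Mature genes passed with precursor genes by r in S100a8 with Ngp (r = 0.762), S100a9 with Elane (r = 0.7785) and Retnlg with Elane (r = 0.8153). Without the 2 libraries farthest from the median none of these 3 passed (r = 0.463, 0.675 and 0.581, adjusted permutation p = 0.416, 0.209 and 0.269). Over all 10 libraries, 2 pairs passed by both r and Spearman's rho. S100a9 and Retnlg had r = 0.926 (permutation p = 1e-05, the smallest that 100000 resamples can give, adjusted p = 0.00028) and rho = 0.939 (adjusted permutation p = 0.00532). Ngp and Ltf had r = 0.924 (adjusted permutation p = 0.00322) and rho = 0.900 (adjusted permutation p = 0.0132). Without the 2 libraries farthest from the median these r were 0.889 (adjusted permutation p = 0.0409) and 0.817 (adjusted permutation p = 0.0766), so the second relation no longer passed. S100a8 and S100a9 reached r = 0.913 (adjusted permutation p = 0.00373) and rho = 0.745 (adjusted permutation p = 0.0785). Elane with Ltf was the weakest pair (r = 0.296, adjusted permutation p = 0.406, rho = 0.176, adjusted permutation p = 0.626), and its r was -0.356 without the 2 farthest libraries. After centring on the group means 15 of the 28 pairs passed, Elane with Mpo (r = 0.797) among them, against r = 0.583 over the libraries as they are.

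Levels of different genes were compared per length, as TPM (counts per exon length, scaled to a common total). S100a9 (17.8 ± 16.0 TPM, SD, n = 10 libraries) and S100a8 (6.52 ± 6.46) led. Elane (1.35 ± 1.45), Camp (1.14 ± 1.85), Ngp (1.11 ± 1.81) and Retnlg (1.02 ± 0.943) followed within each other's spread. Mpo (0.331 ± 0.529), Ltf (0.255 ± 0.360), Mmp8 (0.0696 ± 0.0504) and Ly6g (0.0506 ± 0.0685) were the lowest. The gaps between neighbours in this order were smaller than the larger of their SDs, though those from S100a9 to S100a8, S100a8 to Elane, Retnlg to Mpo and Ltf to Mmp8 exceeded the smaller SD. The order differed by group, since Elane was at 2.09 ± 1.81 TPM in Flox and 0.615 ± 0.326 TPM in LKO, where Camp (1.396 ± 1.91), Ngp (1.11 ± 1.47) and Retnlg (0.801 ± 0.969) stood above it. Prtn3 stood at 32.1 ± 33.7 TPM in Flox and 3.75 ± 2.65 TPM in LKO, above Elane in both groups.

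Other genes of the granulocyte lineage had values on the lower side in LKO, and none passed the test adjusted over all genes. Of all 15894 genes, 51.6% had a negative log2 fold change, with a median of -0.0081, and 7.51% were under an unadjusted p of 0.05 by edgeR. Of the 29 tested genes of the mature neutrophil list, 24 had a negative value, 5 were under an unadjusted p of 0.05, and the median was -0.57. Hdc, the histamine-forming decarboxylase, had a log2 fold change of -0.67 ± 0.20 (SE), and Lrg1, which hepatocytes also make in the acute phase, -2.05 ± 0.63 (adjusted p = 0.652 each by edgeR's quasi-likelihood test). The receptors Cxcr2 (0.430 ± 0.319 against 0.255 ± 0.245 CPM) and Csf3r (2.23 ± 1.53 against 1.22 ± 0.496 CPM) bind neutrophil chemokines and granulocyte colony-stimulating factor, and they had adjusted p of 0.748 and 0.658 by edgeR. Of 16 tested specific and gelatinase granule genes, 12 had a negative value and 2 were under an unadjusted p of 0.05 (median -0.57). These were Lcn2 (-3.93 ± 1.47 SE) and Hp (-1.40 ± 0.55 SE), which are also acute phase products of hepatocytes. Mmp9 (-0.22 ± 0.68 SE), gelatinase B, and Chil3 (-0.67 ± 0.73 SE), a chitinase-like protein, were in the same list. Cd177, a specific granule and surface protein, was under the filter. It had 6, 1, 2, 32 and 2 counts in Flox 1 to 5 and 0, 32, 6, 8 and 16 in LKO 1 to 5, again highest in Flox 4 and LKO 2. The mean of Cd177 was not on the lower side in LKO (0.155 ± 0.228 CPM in Flox, 0.258 ± 0.257 CPM in LKO, exact permutation p = 0.508).

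Of the azurophil and promyelocyte list 6 genes were tested, 5 with a negative value and 2 under an unadjusted p of 0.05 (Prtn3 and Elane, median -0.62), and Calr followed (-0.37 ± 0.20 SE). Ctsg, under the filter, had 26 counts in Flox 4, 18 in LKO 2 and at most 4 elsewhere, with a mean of 0.102 CPM in each group. The precursor marker Ms4a3 had 6 counts in all. Of the 11 tested transcription factors and growth factor receptors, 10 had a negative value (median -0.61), with 2 under an unadjusted p of 0.05. Cebpe, the C/EBP factor of granule synthesis, had 235 to 579 counts per library and did not follow the granule genes, with 9.29 ± 0.791 CPM in Flox against 7.23 ± 1.75 in LKO (adjusted p = 0.652 by edgeR). Cebpd, induced in the acute phase, had a log2 fold change of -0.73 ± 0.25 (SE). Gfi1, a repressor that granulocyte precursors need, had 41 counts in all. Of 15 tested genes of neutrophil recruitment and growth factors, 13 had a negative value (median -0.56), with 4 under an unadjusted p of 0.05, led by C5ar1 (-1.34 ± 0.52 SE) and Il17ra (-0.78 ± 0.30 SE). Cxcl1, a chemokine that draws neutrophils, averaged 34.9 ± 36.4 CPM in Flox against 12.4 ± 8.49 in LKO (adjusted p = 0.671 by edgeR). Cxcl2 had 83 counts in all, and Csf3, the granulocyte growth factor, had 0 in each library, which allows up to 3 counts each.

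Markers of other cells moved with parts of this profile, and their part in it was not tested. All 3 monocyte markers (Ly6c2, Ccr2 and F13a1) were detected, summing to 2.74 to 12 CPM in Flox, highest in Flox 3, and 1.197 to 3.78 CPM in LKO, highest in LKO 2. All 5 erythroid markers summed to 179 to 299 CPM in Flox, highest in Flox 4, and 355.5 to 658 CPM in LKO, highest in LKO 3 and not LKO 2. Of the 3 platelet markers the sums were 2.73 to 5.04 CPM in Flox, highest in Flox 4, and 3.06 to 6.21 CPM in LKO, highest in LKO 5. The eosinophil genes Prg2 and Epx held 1 to 22 counts together and the basophil genes Mcpt8 and Prss34 at most 4. Hbb-bs, a beta globin, was at 83.7 ± 29.4 against 193 ± 61.6 CPM, and Alb, albumin, at 70359 ± 23821 against 108156 ± 8695 CPM (adjusted p = 0.652 each by edgeR). Of the monocyte and recruited macrophage list, 20 of 20 tested genes had a negative log2 fold change, with a median of -0.51 and 4 under an unadjusted p of 0.05, led by Ccr2 and Itgax. All 26 acute phase genes did, with a median of -1.13 and 18 under that p, led by Serpina3n and Saa2. So did 13 of 17 T, NK and B cell genes (median -0.63, 5 under that p, led by Lck and Il2rb) and 14 of 19 proliferation genes (median -0.45, 2 under that p, Tpx2 and Top2a). Among Kupffer cell genes the value was negative in 14 of 16 (median -0.30), with Il18bp alone under that p and Slc40a1, which was positive, next. The Kupffer cell list summed to 224.1 to 912.9 CPM in Flox, highest in Flox 4, and 161 to 706 CPM in LKO, highest in LKO 2. Within their groups these were also the highest libraries for Mpo, Ngp, Camp and Ltf. Of 10 stem and progenitor genes 6 had a negative value (median -0.27), with Mecom, which was positive, alone under that p and Kit next. Ear2 and Gata2, the 2 tested genes of eosinophils, basophils and mast cells, were both negative (median -0.40) and neither was under that p. Positive values were found in 16 of 17 erythroid genes (median 0.89, 8 under that p, led by Hbb-bs). They were also found in 7 of 8 platelet genes (median 0.25, 0 under that p, with Ppbp and Gp1ba nearest to it) and in 12 of 17 hepatocyte genes (median 0.15). Of the hepatocyte genes Alb, which was positive, and Pck1, which was negative, were under that p.

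The genes whose log2 CPM was most like that of 3 members over the 10 libraries were searched among 12512 genes, with Pearson's r as the measure and no test. For S100a8 they were Igsf6 (0.952), Maf (0.937), Atp1b3 (0.923), Abcg1 (0.918) and Cd300e (0.914). For Elane they were Sema3f (0.905), Dysf (0.903), Kng2 (0.898), Vav1 (0.896) and Prkcb (0.880). For Ngp they were Itga9 (0.946), Stx12 (0.929), Ano6 (0.912), Oas1c (0.901) and Lilra5 (0.895). The 3 sets shared no gene.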

How the data were processed

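RNA-seq of liver gave 10 libraries, 5 per group. The authors deposited raw counts for each Ensembl gene, which are whole numbers with no scaling. Tools named in the submitters' processing notes are STAR 2.5.1a, featureCounts 1.4.6-p5, Subread and bcl2fastq, with the build GRCm38. Annotation release, strandedness and the handling of multi-mapping reads and of mates are not given there. The numbers of the LKO columns (1 to 5) differ from those of the LKO titles (6 to 10), so these libraries are known by group only and are called by column number.

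After 287 repeated lines were dropped, 55487 genes remained. Genes were kept by edgeR's filterByExpr (defaults, 15894 genes), scaled by TMM and tested by edgeR's quasi-likelihood test (version 4.0.16, R 4.3.3) on the group alone. Benjamini-Hochberg adjustment ran over all genes tested, and genes under 0.05 were called. The 95% intervals of fold changes come from the same fit. CPM were computed from counts and TMM-scaled library totals, and log2 CPM has a prior count of 2. TPM uses merged exon lengths of GENCODE M21 (GRCm38), in which 55141 of the identifiers were found. For genes under the filter, mean CPM was compared by an exact two-sided permutation test (scipy 1.17.1). DESeq2 1.42.0 and limma-voom (limma 3.58.1) were alternatives, beside other scalings, no filter, the column number as a block and leaving out libraries. The 15 gene lists hold 314 symbols, of which 308 were found, and some of them include genes among the 10. From each list up to 4 genes past the threshold were to be named or, where none passed, the 2 with the smallest p that are not among the 10 genes; 1 such gene is not reported here. Prtn3, Ctsg, Ms4a3, Lcn2, Chil3, Cd177, Mmp9, Cxcr2, Csf3r, Cebpe, Gfi1, Cxcl1, Cxcl2, Csf3, Saa2, Hbb-bs, Alb and Arg2 were named whatever their values. The genes and lists were chosen with earlier results of these data known. Cfd, the share of specific granule counts and the relations with Prtn3 and Saa2 were added after the values were seen.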

Additional observations from a re-analysis of the deposited data

Results flagged for a closer look

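Camp in Flox 4 stood apart from its group, at 1.395 CPM against 0 counts in each of the other 4 Flox libraries. Its gap to the nearest library was the whole range of the group. With the other 4 libraries tied at 0, any count in Flox 4 would have given this gap. On the log2 CPM scale Camp in Flox was the only one of the 22 groups examined (the 10 genes and Prtn3 in Flox and in LKO) past Dixon's critical value of 0.71 for 5 samples. Chance flags about 5% of groups of untied values, a rate that does not hold for a group with such ties. On CPM itself, 10 of the 22 groups were past that value, so this depends on the scale. These were Camp, Mpo and Ltf in both groups, Ngp in Flox (gap over range 0.956), and S100a8 (0.871), S100a9 (0.747) and Ly6g (0.750) in LKO.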

How the results depend on the processing

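The count of genes called was 0 under each alternative except DESeq2, which called 11. With the column number as a replicate block, log2 fold changes were -0.33 (S100a8), -0.29 (S100a9), -1.39 (Elane) and 2.63 (Camp), none called. No label pairs the libraries, and the numbers are only those of the columns. Leaving out 1 library at a time gave log2 fold changes of -1.23 to 0.27 for S100a8, -1.2025 to 0.11 for S100a9, -2.01 to -1.11 for Elane and -0.60 to 7.50 for Camp, the last with all Flox libraries at 0 and so no bound. Differences in mean CPM (LKO minus Flox) ran from -0.0148 to 0.00693 for Ly6g, -0.215 to -0.0456 for Retnlg, -0.294 to 0.386 for Mpo, -0.320 to 0.535 for Ngp, -0.0012 to 0.474 for Ltf and -0.0329 to 0.0107 for Mmp8. Other sign changes were S100a9 at 0.18 by limma-voom, and Ngp at -0.0096 CPM with library totals. Without Flox 2 and Flox 3, the libraries with the most serum amyloid, S100a9 was at 0.085, Camp at -0.029, Retnlg at 0.0182 CPM and Ngp at -0.344 CPM. Without Flox 4 and LKO 2, left out after the data were seen, Ly6g was at -0.0198, Mpo at 0.157 and Mmp8 at 0.0171 CPM. In that fit S100a8, S100a9 and Elane had log2 fold changes of -0.82, -0.97 and -1.33, and Camp did not pass the filter. The mean precursor minus mature value of LKO was -0.050 with Mmp8 among the mature genes. Without the 2 libraries farthest from the median, r turned to -0.00209 (Retnlg and Ltf), -0.0987 (Retnlg and Mmp8), -0.0293 (Elane and Ngp), -0.356 (Elane and Ltf), -0.121 (Elane and Mmp8), -0.209 (Ltf and Prtn3) and -0.139 (Ngp and Saa2). Centred on the group means, Ltf and Saa2 had r = 0.249. The cause of these changes was not tested. Depth limits Ly6g and Mmp8 most, with 10 and 37 counts over all libraries.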
